A study of Mus musculus with 4 samples.

Results

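The replication-dependent histone genes were taken from an RNA immunoprecipitation (RIP-seq) table of AML12 cells, an immortalised mouse hepatocyte line. Every entry whose gene symbol begins with Hist, a cluster number and h was a member, which gave 70 of the 52197 entries in the table. By class they comprised 6 linker histone H1 genes, 20 H2A, 19 H2B, 12 H3 and 13 H4 genes. Cluster 1 on chromosome 13 held 56 members, cluster 2 on chromosome 3 held 10, cluster 3 on chromosome 11 held 3 and cluster 4 on chromosome 6 held 1. All libraries came from AML12 nuclei crosslinked with ultraviolet light, from cells grown in serum and dexamethasone. In the SAFB RIP (2 libraries), nuclear RNA was pulled down with anti-SAFB; scaffold attachment factor B is a nuclear protein able to bind both RNA and DNA. In the IgG RIP (2 libraries), control immunoglobulin took the antibody's place on the same kind of lysate. The labels do not say whether libraries came from separate cultures, so p-values measure only the spread between these libraries, which may be technical.

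Replication-dependent histone genes supply the histones that package newly made DNA in S phase. H2A, H2B, H3 and H4 form the nucleosome core, and the lysine-rich H1 proteins bind the linker DNA between nucleosomes. Their transcripts are unusual among animal messenger RNAs: most have no intron and no poly(A) tail and end just after a conserved stem-loop, which is bound by SLBP and cut with the help of the U7 small nuclear ribonucleoprotein. In human cells, SAFB has been described as favouring purine-rich RNA.

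The stem-loop and the coding sequence of a few members are shown first, because the classes compared here differ in these letters. Sequences are from GENCODE release M21 transcripts, whose assembly is the one called mm10, 5′ to 3′ on the transcript strand, with T for U. The search took the core of the histone stem-loop, on the transcript strand beyond the stop codon of each annotated transcript: GG, any 2 bases, C, TTTT, any base, AG, any 2 bases and CC. In the lines that follow, capitals mark the 16 bases of the stem-loop and the flanks are in lower case.
Hist1h1e: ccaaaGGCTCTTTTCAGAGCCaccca
Hist2h2ac: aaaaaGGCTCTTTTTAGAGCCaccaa
Hist1h2bg: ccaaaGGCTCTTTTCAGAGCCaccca
Hist1h3e: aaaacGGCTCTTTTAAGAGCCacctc
Hist1h4h: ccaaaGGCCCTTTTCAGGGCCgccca
Hist1h4i: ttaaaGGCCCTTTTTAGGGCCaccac
Hist1h4j: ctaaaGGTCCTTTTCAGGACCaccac

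A stem-loop of this pattern was found in 44 of the 70 members, 21 to 58 bases after the stop codon with a median of 31. In all 44 the 6 base pairs of the stem were complementary, though the search pattern itself fixed most of them. Only the pairs between the 2 free bases on each side of the stem could have failed to match. The stem opened with GGCTC in 33 members, which were H1, H2A, H2B and H3 genes. All 11 H4 genes with a match had another stem, opening with GGCCC in 9 and with GGTCC in 2. Of the members with no match, 15 have annotated models with less than 16 bases after the stop codon. Counting the longest transcript of each gene, 43 of 52 members with a long enough 3′ untranslated region held the pattern, against 15 of 18369 other protein-coding genes (0.0817%). One of these 15 was H2afx, a histone gene outside the rule.

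The coding sequences differed in purine runs. The following lines show, for 5 members, the first stretch of 120 coding bases that holds the most copies of GAAGA, with those copies in capitals.
Hist1h1b (bases 353 to 472 of the coding sequence, 5 copies): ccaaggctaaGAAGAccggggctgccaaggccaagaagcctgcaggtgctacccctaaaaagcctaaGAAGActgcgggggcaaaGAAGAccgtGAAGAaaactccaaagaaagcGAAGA
Hist1h1e (bases 359 to 478, 4 copies): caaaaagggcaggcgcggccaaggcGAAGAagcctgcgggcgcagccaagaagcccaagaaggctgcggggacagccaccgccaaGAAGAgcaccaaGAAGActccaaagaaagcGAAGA
Hist1h2bg (bases 1 to 120, 2 copies): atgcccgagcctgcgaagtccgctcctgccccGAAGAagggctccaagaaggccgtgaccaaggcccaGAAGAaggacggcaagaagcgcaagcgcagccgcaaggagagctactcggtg
Hist1h3e (bases 1 to 120, 1 copy): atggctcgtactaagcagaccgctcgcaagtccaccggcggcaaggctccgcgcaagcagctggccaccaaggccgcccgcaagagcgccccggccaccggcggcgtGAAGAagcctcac
Hist1h4h (bases 1 to 120, 0 copies): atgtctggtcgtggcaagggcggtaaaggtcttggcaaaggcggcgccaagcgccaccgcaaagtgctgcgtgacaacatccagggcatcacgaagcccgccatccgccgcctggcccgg
The H1 stretches are rich in lysine codons, which made up 19.0% to 29.0% of all codons in H1 genes. The lysine share was 14.8% to 15.7% in H2B, 8.5% to 10.8% in H2A, 8.2% to 9.5% in H3 and 10.6% in every H4 gene. The lysine share was thus lowest in H3 and H2A genes, not in H4.

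Values are TPM, in which transcript counts are scaled by length and to a fixed library total, so that they keep no read depth. The depth of each library is therefore unknown, and a value of 0 is described only as listed at 0. The SAFB libraries held 22389 and 21006 identifiers above 0 and the IgG libraries 16031 and 17278. All 11 hepatocyte markers averaged at least 1 TPM. Their summed level was 6726 to 6989 TPM in the SAFB RIP and 7493 to 7666 TPM in the IgG RIP. Of 4 cholangiocyte markers, 3 averaged at least 1 TPM, with sums of 869.9 to 900.5 TPM in the SAFB RIP and 910.0 to 1265 TPM in the IgG RIP. Fibroblast and endothelial markers summed to at most 1.80 TPM in any library, with Pdgfrb, Acta2 and Cdh5 listed at 0. Leukocyte markers summed to 21.7 to 32.0 TPM in the SAFB RIP and 6.31 to 12.7 TPM in the IgG RIP, nearly all of it Cd68, while Adgre1 was listed at 0. The part of these markers in the histone results was not tested.

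As a group, histone genes took slightly less of the SAFB RIP than of the IgG RIP, and the classes within it moved apart. Members summed to 4000.4 and 3962 TPM in the SAFB libraries, against 5132 and 4383 TPM in the IgG libraries. H1 transcripts summed to 1002 and 882 TPM in the SAFB RIP, against 520.0 and 438 TPM in the IgG RIP. H4 transcripts summed to 646 and 687 TPM in the SAFB RIP, against 1609 and 1598 TPM in the IgG RIP, where they were the most abundant class. H3 transcripts summed to 364 and 407 TPM in the SAFB RIP, against 666 and 669 TPM in the IgG RIP. In these 3 classes the libraries of the groups did not overlap. H2A genes summed to 1012 and 1039.7 TPM in the SAFB RIP, against 1123 and 819 TPM in the IgG RIP. H2B genes summed to 977 and 945 TPM in the SAFB RIP, against 1214 and 859.9 TPM in the IgG RIP. For H2A and H2B the SAFB libraries lay between the IgG libraries.

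**Figure D1:**
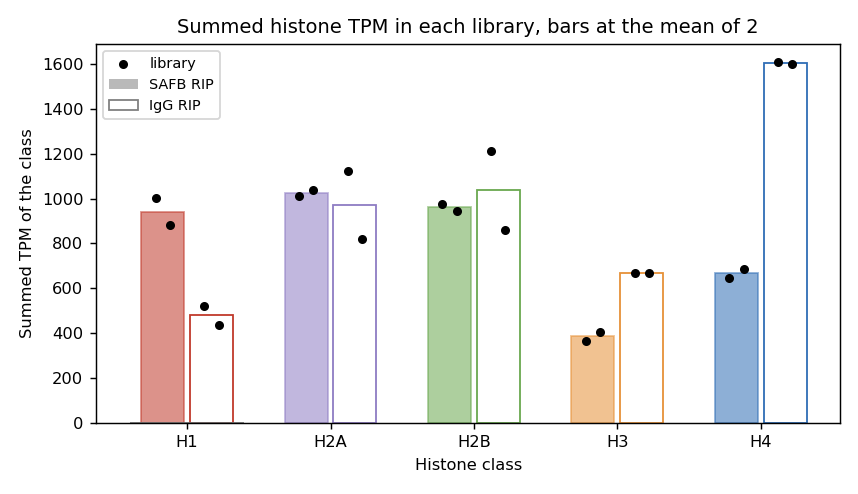
Summed TPM of the 5 histone classes (y axis) in the SAFB RIP (filled bars, left of each pair) and the IgG RIP (open bars), with bars at the mean of 2 libraries and a point for each library. The H1 sum averaged 942 TPM in the SAFB RIP against 479 TPM in the IgG RIP, the H4 sum 667 TPM against 1604 TPM, and the H2A and H2B sums overlap between groups.

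Set against each other, H1 made up 23.7% ± 1.97 of all histone TPM in the SAFB RIP and 10.1% ± 0.102 in the IgG RIP (SD, n = 2 each). H4 made up 16.7% ± 0.856 in the SAFB RIP and 33.9% ± 3.61 in the IgG RIP. The ratio of summed H1 to summed H4 TPM was 1.55 and 1.28 in the SAFB libraries, against 0.323 and 0.274 in the IgG libraries. A ratio within a library does not depend on how the library was scaled. These sums carry no test, since with 2 libraries a side the smallest two-sided p of an exact permutation test is 0.333.

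Gene by gene, 67 of the 70 members reached 1 TPM in at least 2 libraries and were tested, none of them through 1 group alone. Of these, 5 rose and 13 fell in the SAFB RIP, in limma on log2(TPM + 1) with a Benjamini-Hochberg adjusted p under 0.05 over all genes. Among all 16647 genes tested, 29.8% were called higher and 8.30% lower, against 7.46% and 19.4% of the histone members. The median log2 fold change was -0.13 over the members and 0.46 over all genes tested. After each library was centred on its median, 1 member rose and 22 fell, against 16.4% of all genes higher and 17.6% lower. With a trend on transcript GC content removed, 14 rose and 9 fell, which is 20.9% and 13.4% of the members, against 26.1% and 5.04% of all genes. Without SAFB RIP replicate 1, and likewise without replicate 2, 0 rose and 1 fell, which was Hist1h4h each time, while 4.61% and 4.70% of all genes were called higher and 7 genes (0.0420%) lower in each fit. The median log2 fold change over the members was -0.12 and -0.17 in those fits. Without IgG RIP replicate 1, 13 rose and 17 fell (19.4% and 25.4% of the members), against 41.2% and 13.6% of all genes. Without IgG RIP replicate 2, 11 rose and 27 fell (16.4% and 40.3%), against 45.8% and 15.4% of all genes. Over the members tested, the median absolute log2 difference was 0.20 between the SAFB libraries and 0.40 between the IgG libraries, and IgG RIP replicate 1 lay above replicate 2 in 44 of 67.

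**Figure D2:**
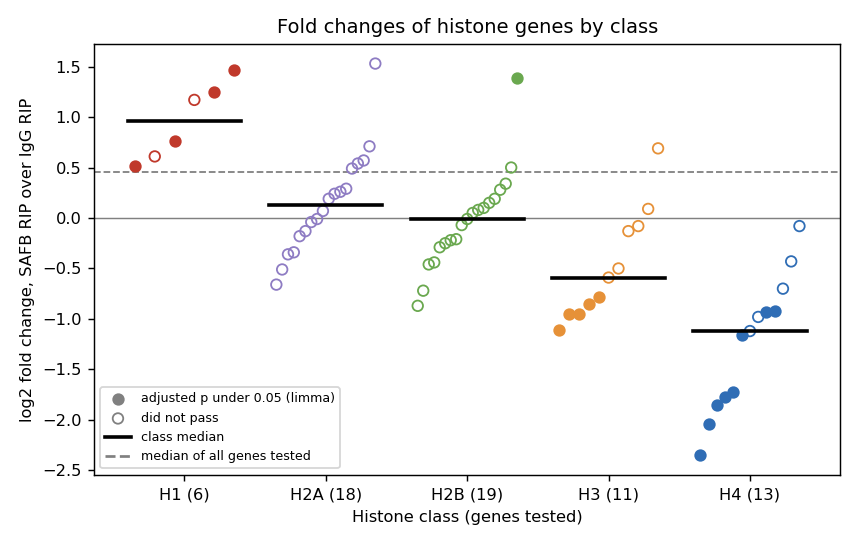
Log2 fold change of the SAFB RIP over the IgG RIP on the log2(TPM + 1) scale (y axis) for each histone gene tested, by class (x axis, genes tested in brackets). Filled points passed an adjusted p of 0.05 in limma, black bars are class medians and the dashed line is the median of all genes tested, 0.46. All 6 H1 genes lie above 0 and all 13 H4 genes below it.

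All 6 H1 genes were higher in both SAFB libraries than in either IgG library, and 4 of them passed. Their median log2 fold change was 0.96, and 4 of 6 is 66.7%, against the 29.8% of all genes called higher. After median centring only 1 of the 6 passed as higher, against 16.4% of all genes. Non-overlap in this direction was seen in 52.3% of all genes. Hist1h1e had 339 and 274 TPM in the SAFB RIP, against 146 and 81.6 TPM in the IgG RIP. It had the highest mean level of the class and rose by 1.47 ± 0.31 (SE, limma adjusted p = 0.0255). Hist1h1b had 225 and 201 TPM in the SAFB RIP, against 76.2 and 104 TPM in the IgG RIP. This gene rose by 1.25 ± 0.18 (limma adjusted p = 0.0118) and was the member that still rose after median centring, by 0.79 (adjusted p = 0.0235).

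Hist1h1a had 135 and 147 TPM in the SAFB RIP, against 88.0 and 78.2 TPM in the IgG RIP, a rise of 0.76 ± 0.12 (limma adjusted p = 0.0137). Hist1h1c had 219 and 190.1 TPM in the SAFB RIP, against 155 and 131 TPM in the IgG RIP, a rise of 0.52 ± 0.14 (limma adjusted p = 0.0458). These were the smaller rises among the H1 genes that passed, at 0.30 and 0.06 after median centring, where neither passed. Hist1h1e, at 1.01 there, did not pass either (adjusted p = 0.0688). Hist1h1d had 79.0 and 66.1 TPM in the SAFB RIP, against 53.6 and 41.2 TPM in the IgG RIP, and Hist1h1t, a gene known for its use in testis, 4.85 and 3.63 TPM against 0.616 and 2.31 TPM. Neither passed, at 0.61 ± 0.19 and 1.17 ± 0.47. H1 genes share little sequence with other transcripts: 0% of 50-base windows in Hist1h1a, Hist1h1b and Hist1h1t, 2.3% in Hist1h1d, 8.5% in Hist1h1c and 32.0% in Hist1h1e. The model of Hist1h1e (chromosome 13, 23620629 to 23622558, minus strand) overlaps an exon of Hist1h2be and of Gm11398 on the same strand, so its value is uncertain. Hist1h2be stood at 0.08 ± 0.23, with 41.6 and 30.6 TPM in the SAFB RIP against 37.4 and 30.5 TPM in the IgG RIP.

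All 13 H4 genes had negative fold changes, and in 12 of them both SAFB libraries lay below both IgG libraries. The 8 that fell make up 61.5% of the class, against 8.30% of all genes called lower, and non-overlap in this direction was seen in 21.4% of all genes. Their median log2 fold change was -1.12. After median centring all 13 passed as lower, against 17.6% of all genes. With the GC trend removed 7 fell, against 5.04% of all genes, and Hist1h4b rose. The H4 protein, with H3, forms the centre of the nucleosome core.

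Hist1h4h (chromosome 13, 23531050 to 23531519, plus strand) showed the largest fall among the members. It had 54.1 and 63.0 TPM in the SAFB RIP, against 289 and 314 TPM in the IgG RIP, and fell by 2.35 on the log2 scale (± 0.12, limma adjusted p = 0.00378). It was the most abundant H4 gene of the IgG RIP by mean level and not of the SAFB RIP, where Hist1h4n was higher. Hist1h4a had 25.5 and 30.8 TPM in the SAFB RIP, against 103 and 136 TPM in the IgG RIP, and stood at -2.04 ± 0.20. Hist1h4j had 30.6 and 21.8 TPM in the SAFB RIP, against 101 and 91.1 TPM in the IgG RIP, and stood at -1.85 ± 0.21. In each of these genes both SAFB libraries lay far below both IgG libraries.

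The single gene of cluster 4, Hist4h4 (chromosome 6, 136801553 to 136804415, minus strand), had 16.4 and 18.7 TPM in the SAFB RIP, against 67.1 and 57.4 TPM in the IgG RIP. It fell by 1.77 on the log2 scale (± 0.18, limma adjusted p = 0.00644), and by 2.17 with the GC trend removed. Hist1h4k had 53.2 and 63.3 TPM in the SAFB RIP, against 219 and 169.8 TPM in the IgG RIP, and stood at -1.72 ± 0.18. Hist1h4c, Hist1h4d and Hist1h4i fell less, at -1.16 ± 0.15, -0.93 ± 0.12 and -0.92 ± 0.17. Hist1h4i did not pass with the GC trend removed.

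The 5 H4 genes that did not pass differed in how far they moved. Hist1h4n, the most abundant of the class over all libraries, had 139 and 152 TPM in the SAFB RIP, against 286 and 197 TPM in the IgG RIP, and missed the threshold at -0.70 ± 0.20 (limma adjusted p = 0.0551). Hist1h4f and Hist1h4m stood at -0.98 ± 0.31 and -1.12 ± 0.38, with IgG libraries far apart from each other. Hist2h4, the H4 gene of cluster 2, had 12.9 and 13.0 TPM in the SAFB RIP, against 16.8 and 18.9 TPM in the IgG RIP, at -0.43 ± 0.23. Hist1h4b was the exception of the class, with 82.7 and 85.3 TPM in the SAFB RIP against 95.8 and 82.8 TPM in the IgG RIP, overlapping groups and a fold change of -0.08 ± 0.12. It overlaps an antisense transcript, 4930558J22Rik, whose reads may not have been kept apart. Hist1h4b and Hist1h4j are the H4 genes with the GGTCC stem, and their fold changes were -0.08 and -1.85.

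**Figure D3:**
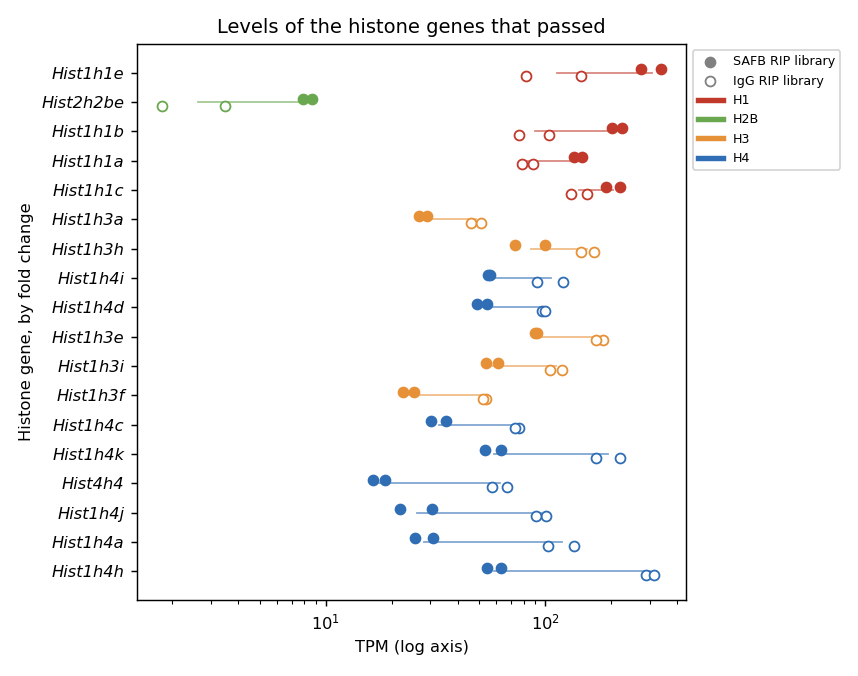
TPM on a log axis (x axis) of the 18 histone genes that passed, ordered by fold change from the highest at the top (y axis), with filled points for the SAFB libraries and open points for the IgG libraries, coloured by class. In every gene shown the points of the groups are apart, with the SAFB libraries to the right for 4 H1 genes and Hist2h2be and to the left for 5 H3 and 8 H4 genes.

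H3 genes were lower as well, with a median between those of H2B and H4. Of 11 tested, 5 fell and 0 rose, which is 45.5% against the 8.30% of all genes called lower, and their median log2 fold change was -0.59. Hist1h3e had 90.0 and 92.0 TPM in the SAFB RIP, against 184 and 170.4 TPM in the IgG RIP, and fell by 0.95 on the log2 scale (± 0.10, limma adjusted p = 0.00697). Hist1h3i had 53.9 and 60.8 TPM in the SAFB RIP, against 105 and 119 TPM in the IgG RIP, at -0.95 ± 0.13. Hist1h3h had 73.2 and 100.1 TPM in the SAFB RIP, against 167 and 145 TPM in the IgG RIP, at -0.85 ± 0.19. Each of these SAFB libraries lay below both IgG libraries. Hist1h3f (-1.11 ± 0.15) and Hist1h3a (-0.78 ± 0.15) fell as well.

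Not all H3 calls were kept when the GC trend was removed. In that fit, Hist1h3e (-0.69) and Hist1h3f (-1.38) still fell, Hist1h3a stood at 0.01, and the class median was -0.03. Hist1h3h and Hist1h3i share 93.9% and 87.6% of their 50-base windows with other transcripts, chiefly with each other, so they are uncertain as single genes. The same holds for Hist1h3e, which shares 73.4%, chiefly with Hist1h3f, and in part for Hist1h3f, which shares 49.3%. The H3 genes of cluster 2 did not pass. Hist2h3b had 25.0 and 22.7 TPM in the SAFB RIP, against 8.62 and 23.5 TPM in the IgG RIP, and Hist2h3c2 6.12 and 7.25 TPM against 5.37 and 7.19 TPM. Hist2h3c1, below 1 TPM in 3 libraries, was not tested.

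H2A genes, whose product pairs with H2B in the nucleosome, showed no call in either direction. Of 18 tested with limma, 0 passed, while 1 was higher and 1 lower at an unadjusted p of 0.05, and the median log2 fold change was 0.13. Hist2h2ac (chromosome 3, 96220361 to 96220880, minus strand), the most abundant, had 211 and 216 TPM in the SAFB RIP, against 169.7 and 126 TPM in the IgG RIP, and stood at 0.54 ± 0.17 (limma adjusted p = 0.0650). Hist1h2ai and Hist1h2ak, at -0.04 ± 0.21 and -0.13 ± 0.18, had overlapping groups. With the GC trend removed 6 of 18 H2A genes passed as higher, against 26.1% of all genes. Among them were Hist2h2ac (1.34), Hist1h2ai (0.76) and Hist1h2ak (0.67). After median centring 2 of 18 passed as lower, against 17.6% of all genes. The sign of the class median depended on the scaling, at 0.72 with the GC trend removed and -0.33 after median centring. Coding GC content was highest in this class, with a median of 68.8%, against 59.4% in H1 genes and 65.1% in H4 genes.

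The H2A genes of cluster 2 included near-identical copies. Hist2h2aa2 had 76.9 and 62.6 TPM in the SAFB RIP, against 131 and 93.0 TPM in the IgG RIP, at -0.66 ± 0.22. All of its 50-base windows recur in another gene's transcript. Hist2h2aa1, with 89.4% of its windows shared, had 11.1 and 0.0253 TPM in the SAFB RIP and was listed at 0 in both IgG libraries. Hist2h2ab had 27.8 TPM in SAFB RIP replicate 1 and 2.46 TPM in IgG RIP replicate 1 and was listed at 0 in both second replicates, so its fold change of 1.53 ± 1.75 rests on 1 library. In cluster 3, Hist3h2a had 49.0 and 50.2 TPM in the SAFB RIP, against 42.0 and 38.7 TPM in the IgG RIP, at 0.29 ± 0.14. Hist1h2aa was listed at 0 in every library.

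Among 19 H2B genes tested, 1 rose and 0 fell, and the median log2 fold change was -0.01. The share called higher, 5.26%, was below the 29.8% of all genes. Hist2h2be (chromosome 3, 96221119 to 96223738, plus strand) had 7.88 and 8.70 TPM in the SAFB RIP, against 1.80 and 3.47 TPM in the IgG RIP, and rose by 1.39 ± 0.39 (limma adjusted p = 0.0491). Its adjusted p was close to the threshold, and after median centring (0.93) and with the GC trend removed it did not pass. None of its 50-base windows recurs in another gene, and its model held no match to the stem-loop pattern. The most abundant H2B gene, Hist2h2bb, had 245 and 210.4 TPM in the SAFB RIP, against 319.7 and 216 TPM in the IgG RIP, at -0.21 ± 0.22. Hist1h2bg (-0.22 ± 0.25) and Hist1h2bk (-0.07 ± 0.17) had overlapping groups too. Hist1h2bk passed as higher with the GC trend removed, at 0.68. In cluster 3, Hist3h2ba stood at -0.87 ± 0.39 and the pseudogene Hist3h2bb-ps at 0.15 ± 0.42.

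The order of the classes was the same in every setting run. In the 16 settings, which are the reported fit and 15 alternatives, the class medians ran from H1 through H2A, H2B and H3 down to H4. Some settings could not change this order. Dropping the mean-variance trend, the robust prior and the replicate block left fold changes as reported, and median centring shifted all genes alike. The H1 median lay between 0.37 and 1.22 and the H4 median between -1.58 and -0.91. Every H1 gene tested was above 0 in all 16, and every H4 gene was below 0 in 14, the exceptions being the removal of the GC trend and the fit without IgG RIP replicate 1. The differences between classes were not tested, since members are not replicates.

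**Figure D4:**
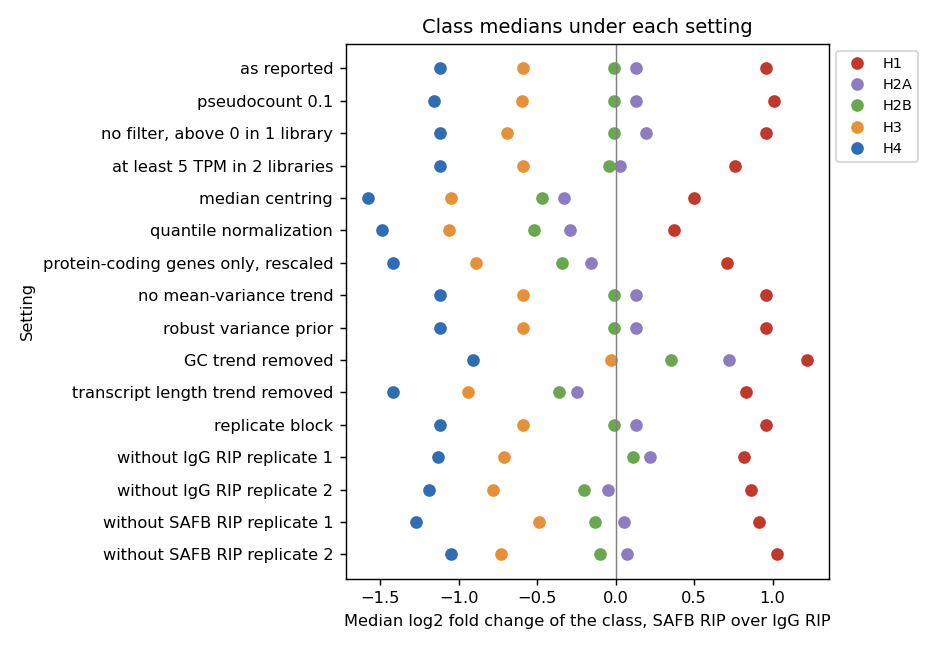
Median log2 fold change of each histone class, SAFB RIP over IgG RIP (x axis), in the reported fit and 15 alternatives (y axis), 1 coloured point per class. From left to right the points run H4, H3, H2B, H2A, H1 in every row, with H1 always right of 0 and H4 always left of it.

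The gene clusters differed in class make-up, so they are compared within a class too. Cluster 1 had 4 members higher and 12 lower of 55 tested, with a median log2 fold change of -0.13, and it held all 6 H1 genes. These are 7.27% and 21.8%, against 29.8% and 8.30% of all genes. Its 2 blocks on chromosome 13 were alike in their counts. From 21715763 to 22043676, 1 of 24 tested rose and 5 fell, and from 23531050 to 23934851, 3 of 30 rose and 7 fell. The pseudogene Hist1h2al lies apart from both. In cluster 2, 1 of 8 rose and 0 fell, and the median was 0.31. In cluster 3, none of 3 passed and the median was 0.15. Within H4, the median was -1.12 for the 11 genes of cluster 1 and -1.10 for the 2 of clusters 2 and 4. Within H3, it was -0.78 for the 9 genes of cluster 1 and 0.39 for the 2 of cluster 2, both of low level. Within H2B the medians were -0.01 and -0.03 for 15 genes inside and 4 outside cluster 1. Within H2A they were 0.03 for 14 genes inside and 0.42 for 4 outside, the latter spread from -0.66 to 1.53.

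Other short or intronless genes gave another picture. Most members (65 of 70) have a single exon. Of 683 other single-exon protein-coding genes tested, 200 were called higher and 53 lower (29.3% and 7.76%), close to all genes, with a median log2 fold change of 0.41. Of 521 other protein-coding genes with transcripts under 1000 bases, 19.8% were called higher and 16.5% lower, with a median of 0.11. Histone genes as a whole, at 7.46% and 19.4%, were near the short genes in the share called lower, and the medians of the H1 and H4 classes lay above and below theirs.

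Members that share sequence with relatives carry uncertain single-gene values. In 34 members at least 50% of the 50-base windows recur in another gene. Leaving those out kept all 5 members called higher and 9 of the 13 called lower, with medians of 0.96 for 6 H1 genes, 0.54 for 5 H2A, 0.08 for 11 H2B, -0.69 for 4 H3 and -1.16 for 9 H4 genes. Exons of 26 members overlap another annotated gene, 7 of them on the same strand.

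The density of 1 purine run, GAAGA, differed between the classes. GAAGA, counted on the transcript strand with overlapping copies, was present in all 6 H1 genes at 7.94 to 15.0 copies per kb. It was present in 18 of 18 coding H2A genes at 5.09 to 7.63 per kb, in 16 of 18 H2B genes with a median of 5.25, and in 12 of 12 H3 genes with a median of 2.43 per kb. None of the 13 H4 genes held a copy. Neither did Hist2h2be, the H2B gene that rose, nor Hist1h2ba. Class medians of purine content over the whole coding sequence did not follow the order of the fold changes. They were 59.0% in H1, 53.2% in H2A, 54.1% in H2B, 49.9% in H3 and 53.8% in H4 genes. Of 1652 other genes tested with coding sequences of 300 to 700 bases, 78.1% held at least 1 copy, with a median of 3.15 per kb. Across the 64 members tested with a coding sequence, the rank correlation of log2 fold change was 0.64 with GAAGA density and 0.43 with purine content. It was -0.16 with coding GC content and 0.07 with transcript length. Outside H1, most members of a class have nearly the same density, while H1 genes run from 7.94 to 15.0 per kb. The correlation with density thus mostly describes differences between classes, and all points come from the same 4 libraries. A match is only a run of letters and does not show a binding site.

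In those 1652 short genes, the median log2 fold change was -0.03 for 362 genes with no copy. It was -0.01 for 419 genes with over 0 to 3 copies per kb and 0.23 for 442 with over 3 to 6. For 267 genes with over 6 to 9 it was 0.43, and for 162 with over 9 it was 0.74. The share called higher was 17.1%, 11.9%, 20.1%, 26.6% and 42.0% in these bins, in that order. The share called lower was 17.7%, 13.8%, 10.2%, 8.61% and 2.47%. Median coding GC content moved with the bins, at 56.0%, 54.5%, 52.8%, 50.7% and 49.8%. Across all 9925 other coding sequences tested, the rank correlation of fold change was 0.34 with GAAGA density and -0.49 with coding GC content. It was 0.41 with purine content. In the 1652 short genes these correlations were 0.23, -0.33 and 0.27, in that order. The part of GC content in these values was not tested. Among the histone classes, median coding GC was 59.4% in H1, 62.7% in H2B, 65.1% in H4, 66.9% in H3 and 68.8% in H2A genes.

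**Figure D5:**
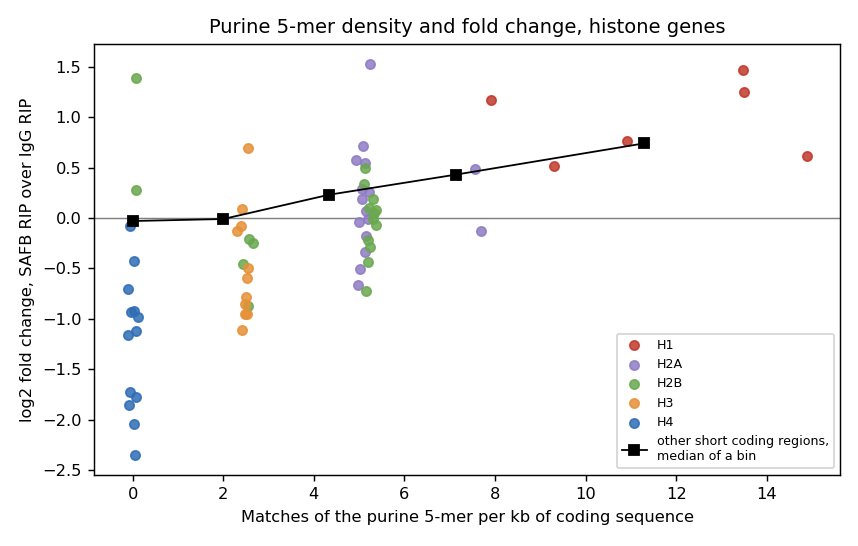
Copies of the purine 5-mer per kb of coding sequence (x axis, points spread slightly sideways) against log2 fold change of the SAFB RIP over the IgG RIP (y axis) for 64 histone genes, coloured by class. Black squares are medians of other tested genes with coding sequences of 300 to 700 bases in 5 bins, and run from -0.03 with no copy to 0.74 with over 9, while H4 genes, with no copy, reach -2.35.

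Genes for the factors that make, use and destroy histone messages were looked up from lists. Of 17 tested for histone pre-mRNA cleavage, 4 rose and 2 fell, with a median log2 fold change of 0.46, equal to that of all genes. The shares, 23.5% and 11.8%, were near the 29.8% and 8.30% of all genes. Srrt, the most abundant of them, stood at -0.28 ± 0.16 and Cpsf3, for the cleaving subunit, at 0.45 ± 0.25, and neither passed. Cstf2t, a cleavage stimulation factor gene, had 224 and 208 TPM in the SAFB RIP, against 45.8 and 48.4 TPM in the IgG RIP, and rose by 2.17 ± 0.11. Ncbp2, for a cap-binding subunit, rose by 1.67 ± 0.23 and Cpsf2 by 1.45 ± 0.29. Snrpb, for a core protein of small nuclear ribonucleoproteins, stood at -1.15 ± 0.13 and Sympk, for the scaffold symplekin, at -0.77 ± 0.13, and both fell. After median centring 3 of the 17 genes were higher and 3 lower, near the 16.4% and 17.6% of all genes. Slbp, for the stem-loop binding protein, had 40.2 and 41.8 TPM in the SAFB RIP, against 62.7 and 43.2 TPM in the IgG RIP, and did not pass at -0.34 ± 0.22. Rnu7, the U7 RNA itself, was below 1 TPM in every library and was not tested.

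Of 11 genes for the histone locus body and histone transcription, 6 rose and 0 fell, with a median of 0.95, and 3 rose after median centring. The 6 are 54.5% of the list, against 29.8% of all genes called higher (16.4% after centring). Npat, a coactivator of histone genes, had 45.8 and 40.9 TPM in the SAFB RIP, against 14.7 TPM in both IgG libraries, and rose by 1.50 ± 0.18. Coil, which encodes the Cajal body protein coilin, rose by 1.92 ± 0.28, and Pou2f1 (1.26), Gon4l (1.03) and Yy1 (0.86) rose too, while Hinfp, an activator of H4 genes, stood at 0.10 ± 0.17. Casp8ap2, which encodes the cleavage factor FLASH and stands in both lists, rose by 1.95 ± 0.31. Of 11 genes for translation and decay of histone messages, 4 rose and 2 fell (36.4% and 18.2%, against 29.8% and 8.30% of all genes). After median centring 2 rose and 2 fell, against 16.4% and 17.6% of all genes. Zcchc6, a terminal uridylyltransferase, rose by 1.90 ± 0.29, Pnrc2 by 1.81 ± 0.27 and Xrn1, an exonuclease, by 0.87 ± 0.22. Upf1, a helicase used in histone message decay, fell by 0.77 on the log2 scale and Dxo fell by 0.87. Exosc10, an exosome subunit gene, stood at 0.07 ± 0.17.

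Of 16 histone chaperone genes, 7 rose and 1 fell, with a median of 0.52, and 5 rose and 2 fell after median centring. The median was near the 0.46 of all genes, and 43.8% and 6.25% were called, against 29.8% and 8.30% of all genes (16.4% and 17.6% after centring). Atrx (2.12 ± 0.09), Nap1l1 (1.82 ± 0.17), Nasp (1.70 ± 0.24), which encodes an H3 and H4 chaperone, the FACT subunits Supt16 (1.43 ± 0.12) and Ssrp1 (1.29 ± 0.15), and Nap1l4 (0.59 ± 0.09) rose. Rbbp7 did not pass, at 0.32 ± 0.12. Ipo4, an importin for H3 and H4, fell by 1.13 on the log2 scale. Of 9 replication-independent histone genes tested, 2 rose and 1 fell (22.2% and 11.1%), and 1 and 5 after median centring. H1f0, the replacement linker histone, had 267 and 252 TPM in the SAFB RIP, against 137 and 134 TPM in the IgG RIP, and rose by 0.93 ± 0.09. H2afy, for macroH2A, rose by 0.44 ± 0.11 but stood at -0.02 after median centring, and H2afj did not pass at 0.26 ± 0.18. H3f3b, for the replacement H3, had 307 and 277 TPM in the SAFB RIP, against 518 and 509.8 TPM in the IgG RIP, and fell by 0.82 on the log2 scale. H2afx, which carries the stem-loop, had 28.5 and 31.8 TPM in the SAFB RIP, against 54.8 and 41.8 TPM in the IgG RIP, and did not pass at -0.65 ± 0.20. After median centring H2afx passed as lower, at -1.11.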

How the data were processed

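The authors deposited 1 table of TPM values, with 1 column per library. Per the submitters' processing notes, HISAT2, HTSeq, DESeq2, StringTie and the build mm10 were used, without versions or roles. Which tool computed TPM, with which annotation and strand setting, is not given in the sources used here. Per the labels' protocols, ribosomal RNA was depleted and libraries were strand-specific, so RNAs without a poly(A) tail could be read.

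Entries sharing an identifier (14 entries, 6 identifiers) were summed. A gene was tested if 2 or more of the 4 libraries reached 1 TPM, on log2(TPM + 1) with limma 3.58.1 in R 4.3.3, with a mean-variance trend, 2 residual and 2.50 prior degrees of freedom, and Benjamini-Hochberg adjusted p-values over all genes. Errors of fold changes are SE, and those of TPM are SD over 2 libraries. The pseudocount understates changes of low genes. The procedure was tested on simulated data. Python 3.11.15 was used for sequence features, which come from the longest transcript of each gene in GENCODE M21, where all 70 members were found, except that the stem-loop was looked for in every transcript.

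Members and lists were chosen with earlier results of these data known. The text names members that passed with a mean of at least 5 TPM in the higher group, the 3 most abundant of each class, and members of clusters 2 to 4 averaging at least 1 TPM, and from each list the 4 most abundant and those that passed at a mean of 20 TPM or more. Other members named, such as Hist1h2be, Hist1h4b, Hist1h4f, Hist1h4m, Hist1h1d and Hist1h1t, and Slbp, Casp8ap2 and H2afx of the lists were chosen after their values were seen. In all, 15 alternatives were run.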

Additional observations from a re-analysis of the deposited data

How the results depend on the processing

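The numbers of members called higher and lower, 5 and 13 as reported, depended on scaling. Median centring gave 1 and 22, quantile normalization 3 and 22 and protein-coding genes alone 3 and 20. Removal of a transcript length trend gave 5 and 20, and removal of a GC trend 14 and 9. Over all 16647 genes tested, the reported fit called 4964 higher and 1382 lower. Median centring called 2736 and 2935 of them, quantile normalization 2758 and 2986, length trend removal 4959 and 1261, and GC trend removal 4351 and 839. With protein-coding genes alone it was 2600 and 2322 of 12119. A pseudocount of 0.1, no filter, no mean-variance trend and a robust variance prior each left 3 called higher. Of all genes, these fits called 4250 of 16647, 4460 of 23895, 4371 of 16647 and 4836 of 16647 higher, in that order. Leaving out 1 library gave 0 to 13 higher and 1 to 27 lower. With fewer samples in each such fit, a lone library is assumed to vary like the other group.

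Class medians moved with the same settings. In the order H1, H2A, H2B, H3 and H4, they were 0.50, -0.33, -0.47, -1.05 and -1.58 after median centring (all members -0.59), 0.37, -0.29, -0.52, -1.06 and -1.49 after quantile normalization (all members -0.57), 0.71, -0.16, -0.34, -0.89 and -1.42 with protein-coding genes alone (all members -0.42), and 1.22, 0.72, 0.35, -0.03 and -0.91 with the GC trend removed (all members 0.30). With the length trend removed H2A, H2B, H3 and H4 stood at -0.25, -0.36, -0.94 and -1.42 (all members -0.47). The H3 median was -0.69 with no filter, and the H1 median 0.76 with a filter of 5 TPM, which left 5 H1 genes. Over the fits that left out 1 library, the median of all members ran from -0.26 to 0.02, H2B from -0.20 to 0.11, H3 from -0.78 to -0.49 and H4 from -1.27 to -1.05. With the GC trend removed, fold changes turned positive for genes below 0 as reported, to 0.76 for Hist1h2ai, 0.67 for Hist1h2ak, 0.68 for Hist1h2bk and 0.01 for Hist1h3a, and the cause was not tested.

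With the replicate number as a block, 6 members were called higher and 17 lower, against 4797 and 1264 of all 16647 genes. Equal numbers are not said to mark a shared lysate, and the deviations of same-numbered libraries correlated at -0.02 across 16647 genes. TPM keeps no depth, so no counting error can be given for low members.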
